A study of Mus with 21 samples.

Results

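The WT mouse brain at E17.5, an embryonic day shortly before birth, is the normal tissue against which the study set its mutants. It is described here from the 5 WT libraries among the 21 at hand, chosen by their label, with no mutant library in any value. Each library holds poly(A) RNA from the snap-frozen whole brain of 1 female embryo that carried only wild-type alleles of both genes under study (*Wapl* +/+; *Nipbl* +/+), with no treatment. Whether an embryo carried the Cre transgene of the study's crosses is not given in the labels. The study's mice were on a C57BL/6J background, and the labels name neither litter nor dissection batch. The libraries are numbered replicates 1 to 5 as in the labels. The question asked of them is what genes a normal brain of this age expresses, at what level, and how much that level moves from one normal embryo to the next. Because the 5 libraries form 1 group, every value below is a description, and none comes from a test.

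*Wapl* and *Nipbl* act on cohesin, the ring complex that folds chromosomes into loops: NIPBL helps to load the ring and WAPL helps to release it. Shortly before birth the mouse brain holds many young neurons that are extending axons, a shrinking pool of radial glia and intermediate progenitors, the first astrocytes and oligodendrocyte precursors, and the vessels, meninges and choroid plexus that serve them. Myelin is still almost absent at this age, and most synapses have yet to form. In a whole-brain library, fewer cells of a type and less RNA per cell cannot be told apart.

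The counts on genes added up to between 30605697 and 35818767 per library (median 31988814). A read pair on overlapping genes may be in these sums more than once. Levels are given as CPM, the counts of a gene per 1000000 counts on genes after TMM scaling, which moved no library by much (factors 0.993 to 1.005). CPM compares one gene between libraries. It is not divided by transcript length, because the lengths of the counted exons were not available, so between genes it ranks only the share of sequenced fragments, and a long transcript takes more of them. Of 55335 listed genes, 19057 had 0 counts in all 5 libraries, 17331 reached a mean of 1 CPM, 11483 reached 10 CPM, 2506 reached 100 CPM and 48 reached 1000 CPM. *Xist* and the listed Y-linked genes fitted the label of female embryos. *Xist*, the noncoding RNA of the inactive X chromosome, stood at 814 ± 45.3 CPM (SD, n = 5), whereas the 4 Y-linked genes of the list had no more than 12 counts each in any library. The pseudogene *Mid1-ps1*, which the annotation places on chromosome Y, went the other way in replicate 1. It stood at 3.54, 0.554, 0.280, 0.829 and 0.473 CPM in replicates 1 to 5.

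A tubulin gene took the largest share of counts, and several other cytoskeletal genes were among the 25 highest. *Tuba1a*, the alpha-tubulin of young neurons (chromosome 15, 98949847 to 98953501 of GRCm38), took 0.621% of all counts. It was followed by *mt-Co1* (5422 CPM), *Meg3* (5087 CPM), the translation factor *Eef1a1* (3939 CPM) and *mt-Cytb* (3668 CPM). The level of *Tuba1a* was 6161, 6250, 6118, 6318 and 6213 CPM in replicates 1 to 5, a coefficient of variation (CV, the SD over the mean) of 1.25%. The beta-tubulins *Tubb2b* (3388 ± 35.3 CPM), *Tubb5* (2734 ± 32.6 CPM) and *Tubb3* (1915 ± 30.9 CPM) were also among the 25 highest genes, as were the microtubule-associated *Mapt* (2368 ± 36.8 CPM) and *Map1b* (2047 ± 102 CPM). *Dpysl3* (2696 ± 37.9 CPM) and *Crmp1* (1379 ± 14.4 CPM) encode collapsin response mediators of axon guidance, and *Kif1a* (1442 ± 35.8 CPM) encodes an axonal motor. In all 25 the 5 libraries lay close together except where ribosomal sequence or a mitochondrial gene was concerned, as the plot of the most abundant genes shows. The CV was under 5% for 21 of the 25, and the exceptions were *Gm42418*, *CT010467.1*, *AY036118* and *mt-Nd5*.

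**Figure D1:**
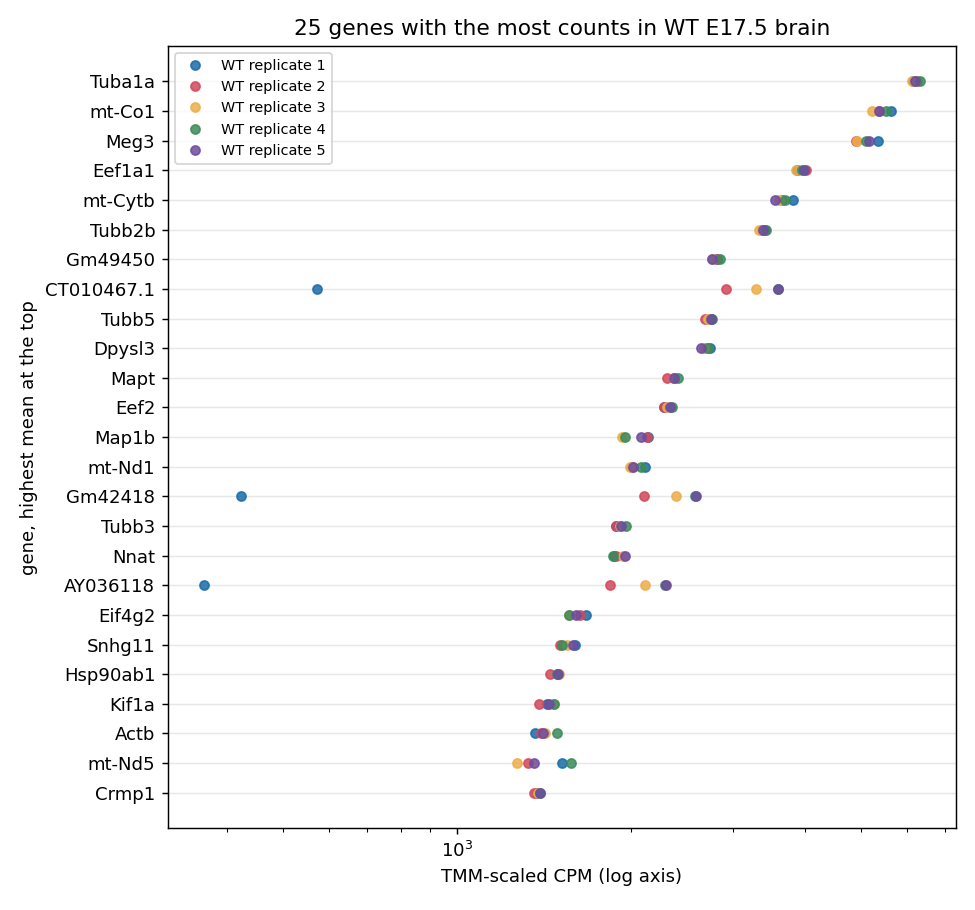
Level of the 25 genes with the most counts, in TMM-scaled CPM on a log axis, with 1 point per WT library. The 5 points of most genes overlap, whereas *CT010467.1*, *Gm42418* and *AY036118* have 1 point, replicate 1, far to the left of the other 4.

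Several long noncoding RNAs were also abundant. As a class they took 2.52% ± 0.0615 (SD, n = 5) of the counts, and protein-coding genes took 91.4% ± 0.268. *Meg3*, an imprinted RNA expressed from the maternal chromosome 12 (109540996 to 109571729), was the highest at 5358, 4898, 4915, 5100 and 5165 CPM. *AY036118*, which the annotation also classes as long noncoding and which is taken up below, came next at a mean of 1783 CPM. *Snhg11* (1554 ± 41.6 CPM), *Miat* (1342 ± 52.7 CPM) and *Rian* (947 ± 31.5 CPM), the last a neighbour of *Meg3* in the same imprinted cluster, followed. Another imprinted gene, the paternally expressed *Nnat*, stood at 1902 ± 38.6 CPM. Counts were not concentrated on few genes. The 10 most abundant genes took 3.87% ± 0.118 of all counts, the 100 most abundant 13.5% ± 0.255, and the 1000 most abundant 41.7% ± 0.219.

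Levels of most genes differed little between embryos. Among the genes of at least 10 CPM the median CV was 3.79%, with a 5th percentile of 1.53% and a 95th percentile of 8.22%. A CV above 10% was found in 255 of these genes, or 2.22% of them. A CV above 20% was found in 28, or 0.244%. Part of that spread is counting error, which follows from the number of reads alone. For the 5848 genes between 1 and 10 CPM the median CV was 10.1% and counting error by itself gives 9.52%. For the 2458 genes between 100 and 1000 CPM the median CV was 2.84% against 1.36% from counting. What remains beyond counting was 3.48%, 2.72%, 2.49% and 2.51% in the 4 classes from the lowest level to the highest. The median SD of 5 libraries runs below the true SD and the counting error used here does not, so these remainders are low. The common biological coefficient of variation fitted by edgeR, which likewise sets counting error aside, was 4.40%. The labels do not say whether the embryos shared a litter, so these numbers measure the spread between these 5 brains.

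**Figure D2:**
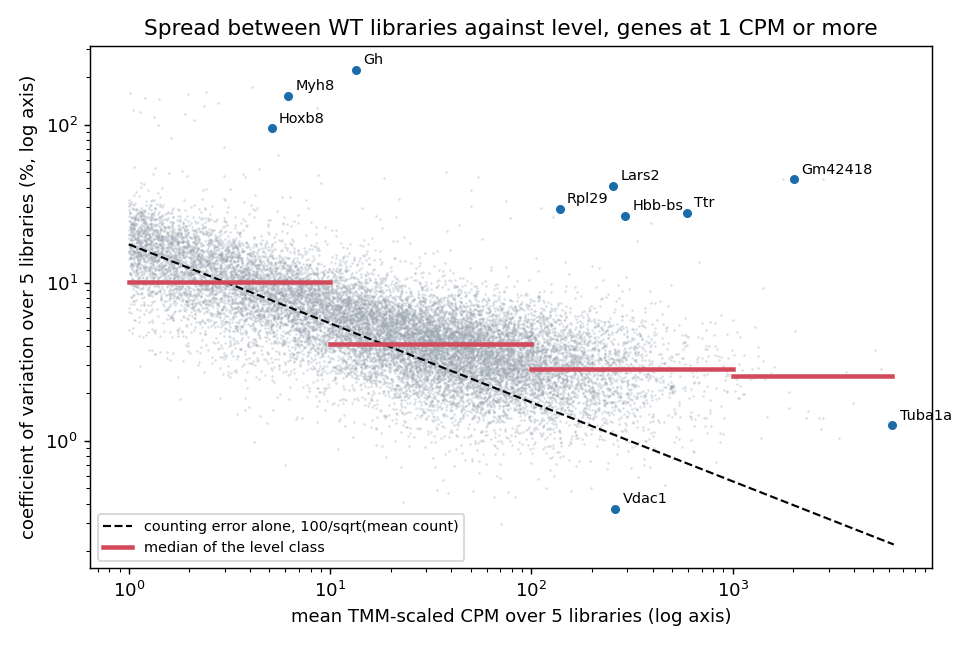
Coefficient of variation over the 5 WT libraries (%, log axis) against mean level in CPM (log axis) for the 17331 genes of at least 1 CPM, 1 grey point per gene. The dashed line is counting error alone, the red bars are the medians of the 4 level classes (10.1%, 4.10%, 2.84% and 2.56%), and the blue points are genes named in the text.

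None of the 14 customary reference genes was among the 10 most even genes of at least 100 CPM, a level that only 8 of the 14 reached. These 10 are the extreme of 2506 genes over 5 libraries. Their small CVs therefore do not show that they are steadier than the reference genes. Among genes of at least 100 CPM, *Vdac1*, the channel of the outer mitochondrial membrane, had the smallest spread, at 261, 261, 261, 262 and 259 CPM. Its CV of 0.371% was below the 1.09% that counting alone gives on average. *Ube2ql1*, *Map2k4*, *Aars*, *Ywhab*, *Jmjd8*, *Fads2*, *Hsdl1*, *Aamp* and *Snap47* were the next most even, with CVs from 0.483% to 0.665%. Of the 14 reference genes, *Ywhaz* (1.32%), *Sdha* (1.38%), *Tbp* (1.40%), *Eef1a1* (1.74%) and *Rpl13a* (1.88%) had CVs under 2%. *Gapdh* stood at 663 ± 21.9 CPM, a CV of 3.31%, and 39.8% of the genes of at least 10 CPM had a smaller one. *Actb* (3.22%) was like it, and *Hprt* was the least even of the list (33.2, 28.7, 30.8, 31.5 and 29.0 CPM, a CV of 5.98%).

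Genes of neurons were well detected and even between embryos. All 16 genes of the neuron list were detected above 10 CPM and 14 of them above 100 CPM. Their summed level was 10869, 10645, 10777, 10866 and 10769 CPM, so that the highest library was only 1.02 times the lowest. Besides *Mapt* and *Tubb3*, *Stmn2*, a microtubule regulator of growing axons, stood at 1076 ± 20.2 CPM, and *Rbfox3*, the nuclear protein NeuN of more mature neurons, at 99.9 CPM (CV 5.48%). Genes of newborn neurons summed to 8160 ± 153 CPM. The migration gene *Dcx* was among them at 958.5, 899, 844, 825 and 845 CPM, with replicate 1 above the other 4.

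Genes of transmitter identity differed little between libraries. *Gad1*, which makes GABA, stood at 178, 170, 172, 171 and 178 CPM. The interneuron peptide *Sst* was present at 61.7 CPM (CV 4.24%), whereas *Vip* (7 to 15 counts) and *Pvalb* (11 to 28 counts), markers of interneurons that mature after birth, were barely detected. The list of GABAergic genes summed to 1106 ± 19.7 CPM and that of glutamatergic genes to 1045 ± 36.9 CPM. *Slc18a2*, the vesicular transporter of monoamine neurons, stood at 26.9 ± 0.703 CPM, the serotonin transporter *Slc6a4* at 11.2 ± 0.301 CPM, and *Th*, the enzyme that sets the rate of dopamine synthesis, at 6.88 CPM. The 12 monoaminergic and cholinergic genes had the most even total of the 44 lists, from 80.6 to 81.4 CPM. Hypothalamic peptides were low. *Avp* had 85 to 115 counts per library, *Agrp* 81 to 114, *Oxt* 3 to 13 and *Hcrt* 5 to 12.

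Genes known from the cortex, thalamus and cerebellum were detected, though a few cerebellar genes were low. For the cortex, *Bcl11b*, a factor of subcerebral projection neurons, stood at 204 ± 10.7 CPM, *Neurod6* at 175 ± 8.10 CPM and *Mef2c* at 209 ± 19.6 CPM. *Mef2c* spread more than most (227, 214, 203, 223 and 178 CPM), with replicate 5 the lowest. For the thalamus, *Tcf7l2* stood at 159 ± 5.15 CPM. For the cerebellum, *Zic1* of granule cells stood at 189 ± 6.32 CPM, and *Foxp2*, a factor of Purkinje cells that cortical neurons share, at 80.2 ± 2.97 CPM. *Reln*, the secreted guide of layering made by Cajal-Retzius cells, was less even, at 312, 338, 249.8, 286 and 299 CPM. The 8 forebrain transcription factors together ran from 273 to 298 CPM. The summed forebrain, thalamic, cerebellar granule, Purkinje, cortical and striatal lists each had a highest library under 1.1 times the lowest. Midbrain factors ran from 78.8 to 90.4 CPM, and their gene *Pax2* stood at 11.0, 10.1, 12.8, 11.6 and 14.8 CPM.

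Genes of progenitors were detected in all libraries. The radial glial list, which summed to 2192 ± 41.5 CPM, was led by the fatty acid binding protein *Fabp7* (437 ± 10.3 CPM) and by genes that astrocytes share, *Ptprz1* (421 ± 24.6 CPM), *Tnc* (322 ± 7.38 CPM) and the glutamate transporter *Slc1a3* (261 ± 9.33 CPM). *Eomes*, the factor of intermediate progenitors, was far lower in counts, at 30.4, 34.6, 32.2, 29.4 and 33.4 CPM. Genes of dividing cells summed to 865 ± 28.6 CPM. Of the 20 on that list, 11 were highest in replicate 2, against 20.2% of all genes of at least 1 CPM. Its proliferation marker *Mki67* stood at 61.9, 61.7, 59.2, 54.6 and 58.6 CPM, and replicate 4 had the lowest total.

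Genes of astrocytes and oligodendrocyte precursors were detected, and late myelin genes barely. Among astrocyte genes, *Apoe* (239 ± 20.3 CPM), *Slc1a2* (143 ± 6.89 CPM), *Aldoc* (130 ± 6.10 CPM) and *Gja1* (104 ± 4.85 CPM) led, while the filament *Gfap* was at 13.4, 12.7, 15.3, 18.7 and 15.2 CPM. Of the 15 astrocyte genes 10 were highest in replicate 4, against 18% of all genes of at least 1 CPM, and that library's total, 1047 CPM, was the only one above 1000 CPM. Oligodendrocyte precursors were marked by *Pdgfra* (78.2 ± 3.82 CPM) and *Olig1* (61.3 ± 2.36 CPM). Of the 10 myelin genes, *Cnp* (56.5 ± 0.882 CPM) and *Mbp* (43.3 ± 1.61 CPM) were above 30 CPM, but *Mobp* had 9 to 15 counts and *Opalin*, a late marker, had 0 to 2.

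Microglia, the resident macrophages, contributed few reads. Their receptor gene *Csf1r* stood at 32.7, 36.7, 35.8, 40.7 and 38.6 CPM, and *Cx3cr1* at 12.1 ± 1.53 CPM. Of the 15 microglial genes 9 were highest in replicate 4, against 18% of all genes of at least 1 CPM. *P2ry12* was not one of them, with its lowest values in replicates 3 and 4 (3.71, 3.94, 2.64, 2.73 and 3.76 CPM). The endothelial genes *Kdr* (66.5 ± 2.12 CPM), *Cldn5* (50.8 ± 3.00 CPM) and *Cdh5* (42.4 ± 0.872 CPM) were even, and the endothelial total ran from 419 to 450 CPM. In replicate 1, 9 of the 16 endothelial genes and 10 of the 16 meningeal genes had their lowest value, against 17.8% of all genes of at least 1 CPM. Mural cells were marked by *Rgs5* (93.2 ± 5.85 CPM) and *Notch3* (77.8 ± 3.08 CPM), and the macrophages of the brain's borders by *Stab1* (55.0 ± 3.90 CPM) and *Mrc1* (24.3 ± 1.75 CPM). Meningeal fibroblast genes were led by the growth factor *Igf2* (355 ± 15.7 CPM) and the prostaglandin synthase *Ptgds* (216.5 ± 26.7 CPM). *Col1a1*, a collagen of meninges and bone, stood at 113, 110, 188, 123 and 109 CPM, with replicate 3 above the others.

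The early gene exceeded the late one in counts for most of the developmental pairs examined. A pair here is a gene known to prevail early and one known to prevail late, and the quantity is the log2 of the ratio of their CPM in the same library. Because the ratio is not corrected for length, its size is a property of both transcripts, and what compares between embryos is its spread. The early gene had more counts in all 5 libraries for 8 of the 11 pairs. For the NMDA receptor subunits *Grin2b* and *Grin2a* the log2 ratio was 4.72, 4.66, 4.69, 4.82 and 4.65, a mean ratio of 26.1. For the calcium/calmodulin kinase subunits *Camk2b* and *Camk2a* it was 2.29 ± 0.0543. The vesicular glutamate transporters *Slc17a6* and *Slc17a7* spread more, at 1.86, 1.72, 1.84, 1.55 and 1.93. The pair of progenitor and astrocyte filaments, *Nes* and *Gfap*, spread most of these 8, from 2.70 in replicate 4 to 3.37 in replicate 2.

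The late gene had more counts in all 5 libraries for the other 3 pairs. The chloride exporter *Slc12a5*, which lowers chloride in maturing neurons, stood at 285 ± 9.15 CPM and the importer *Slc12a2* at 49.9 ± 3.17 CPM, a log2 ratio of -2.45, -2.34, -2.54, -2.65 and -2.61. The scaffold gene *Dlg4* (396 ± 8.14 CPM) exceeded *Dlg3* (127 ± 2.77 CPM). The embryonic globin *Hbb-y* had 3, 5, 2, 3 and 7 counts, whereas the adult globin *Hbb-bs* had between 7219 and 12139.

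Genes for transmitter release were already high. The 12 synaptic vesicle genes were all above 100 CPM and summed to 3155 ± 79.6 CPM. Among them were *Vamp2* (369 ± 9.55 CPM), which drives fusion of the vesicle, and *Syp* (360 ± 6.38 CPM), a protein of its membrane. The 14 postsynaptic genes summed to 2423 ± 56.5 CPM. Activity-induced genes were low and even. *Fos* stood at 1.94, 1.73, 1.65, 1.47 and 1.83 CPM, *Npas4* at 15.9 CPM (CV 4.81%) and *Jun* at 42.5 ± 1.89 CPM, and the 12 genes together ran from 160 to 170 CPM. Glucocorticoid-induced genes had a highest library 1.04 times the lowest, and heat shock and hypoxia genes 1.07 times.

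The cohesin genes that the study altered elsewhere were of moderate level. *Nipbl* (chromosome 15, 8289824 to 8465315) stood at 75.3, 68.2, 64.0, 64.6 and 70.1 CPM, a CV of 6.74%, and 88.8% of the genes of at least 10 CPM had a smaller one. *Wapl* (chromosome 14, 34672379 to 34747983) stood at 50.4, 47.4, 46.8, 43.9 and 47.2 CPM, a CV of 4.84%. Both were highest in replicate 1. Of the 15 genes of cohesin and its regulators, 11 were highest in replicate 1, against 25.8% of all genes of at least 1 CPM. *Rad21* (190 ± 2.45 CPM, CV 1.29%) and *Smc1a* (131 ± 2.17 CPM, CV 1.66%), which encode ring subunits, were the most even of the abundant members, and *Stag2* (76.5, 69.4, 63.7, 63.0 and 67.4 CPM) was wider.

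Across the 44 gene lists, 24 had a highest library under 1.1 times the lowest and 33 under 1.2 times. The range reached 1.5 times in 9 of the 44. They were those of the pituitary, skeletal muscle, trunk Hox genes, choroid plexus, hypothalamic peptides, red blood cells, cartilage and bone, olfactory and retinal epithelium, and the Y chromosome, the last 2 with fewer than 100 counts per library. The plot of list totals sets these apart from the neuron, radial glia and synaptic lists, whose points nearly coincide. Not all neural lists were so even. The hypothalamic peptide list was among the 9, and the hindbrain factor list had a range of 1.36 times.

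**Figure D3:**
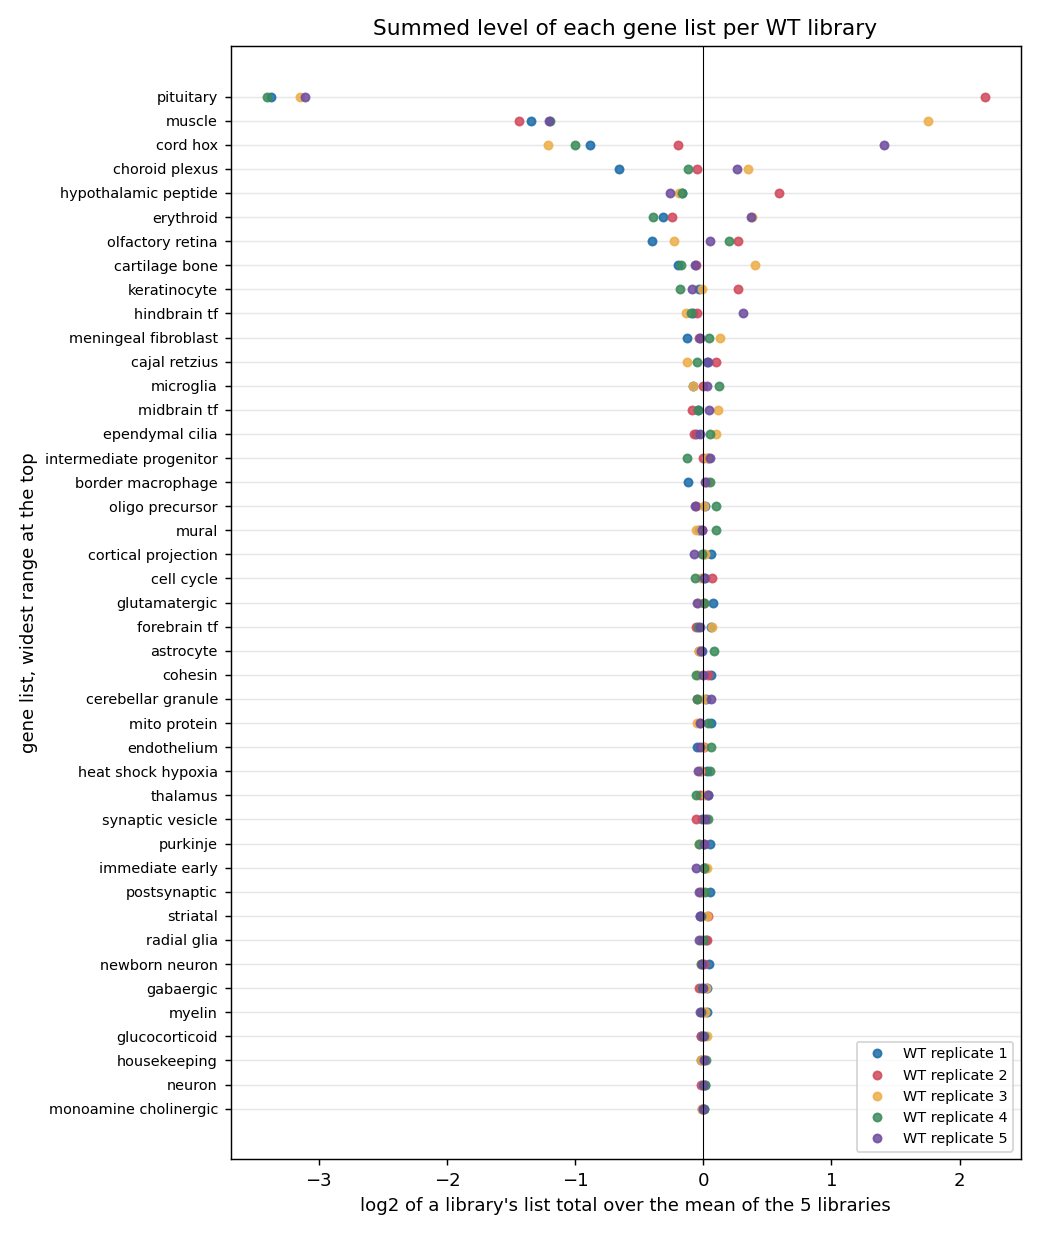
Summed CPM of each gene list in each WT library, as the log2 of its ratio to the mean of the 5 libraries, with 1 point per library and the lists ordered by range (the Y-linked list is not drawn). Replicate 2 stands alone for the pituitary, replicate 3 for muscle and replicate 5 for the trunk Hox genes, whereas the neuron, radial glia and synaptic lists lie on the zero line.

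Choroid plexus, the epithelium that secretes cerebrospinal fluid, varied by 2.01 times. Its 16 genes summed to 474, 721, 952, 689 and 896 CPM in replicates 1 to 5. *Ttr*, the thyroxine carrier that makes up 79.3% of the total, stood at 355, 567, 773, 545 and 719 CPM. *Folr1*, a folate receptor, stood at 4.11, 7.53, 9.86, 7.80 and 9.75 CPM, the water channel *Aqp1* at 12.6, 17.8, 21.9, 16.0 and 22.1 CPM, and *Clic6* at 11.0, 16.8, 21.5, 14.1 and 20.7 CPM. The members moved together. Of the 15 at 1 CPM or more, 13 were lowest in replicate 1, against 17.8% of all genes of at least 1 CPM, and replicates 3 and 5 were both above the other 3 libraries for 14, a pattern found in 9.56% of all genes of at least 1 CPM. Without *Ttr* the range was 1.51 times, and without replicate 1 it was 1.38 times. Ciliated ependymal genes did not share it, with totals of 35.5, 35, 39.6, 38.1 and 36.2 CPM.

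Red cell genes were also highest in replicates 3 and 5, with replicate 4 rather than replicate 1 the lowest. The erythroid total was 445, 469, 720, 422 and 718 CPM, so that replicates 3 and 5 were apart from the other 3 with no library between. *Hbb-bs* stood at 237, 251, 378, 222 and 377 CPM, *Hba-a1* at 85.5, 89.3, 149.6, 88.4 and 148 CPM, and *Alas2*, the first enzyme of heme synthesis in red cells, at 14.8, 15.5, 20.5, 13.5 and 24.1 CPM. Of the 6 genes at 1 CPM or more, 5 had both these libraries on top, against 9.56% of all genes of at least 1 CPM, and the exception was the membrane exchanger *Slc4a1* (2.53, 1.73, 2.4, 1.1 and 2.49 CPM). *Hba-a1* and *Hba-a2* are near-identical copies, and how reads were split between them was not stated. Whether blood and choroid plexus moved for a shared reason was not tested.

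Single libraries also differed from the other 4 in the level of some genes. A gene was taken to stand out when 1 library was at least 1.5 times above, or below, each of the other 4, among the 17331 genes of at least 1 CPM. This rule was set after the values were seen. The filter is on the mean over all 5 libraries, so a gene can pass it only through the library where it is high. *Gh* did so through replicate 2 and *Capn11* through replicate 4. The counts of higher genes are thus partly fixed by the filter and cannot be weighed against those of lower genes. Replicate 1 was higher for 2 genes (0.0115%) and lower for 27 (0.156%). Replicate 2 was higher for 5 (0.0289%) and lower for 6 (0.0346%), replicate 3 higher for 21 (0.121%) and lower for 14 (0.0808%), replicate 4 higher for 4 (0.0231%) and lower for 13 (0.075%), and replicate 5 higher for 7 (0.0404%) and lower for 19 (0.11%). The sets that were higher in replicates 2, 3 and 5 held the genes described next, beside others.

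Replicate 2 held pituitary transcripts. *Gh*, growth hormone (chromosome 11, 106300261 to 106303703), had 0, 2056, 2, 0 and 0 counts in replicates 1 to 5. *Pomc*, the hormone precursor made in the pituitary and in a few hypothalamic neurons, had 37, 514, 35, 30 and 22 counts. *Cga*, the common subunit of the glycoprotein hormones, had 76 counts in replicate 2 and 0 in the others. *Tshb* (51 against 9 to 14 counts), the receptor gene *Ghrhr* (48 against 0 or 1) and the lineage factor *Pou1f1* (22 against 1 to 3) went the same way, whereas *Lhb* did not (24 against 17 to 27). The summed pituitary list was 74.6 CPM in replicate 2 and 1.53 to 1.89 CPM elsewhere (without *Gh* the range was still 4.97 times), and leaving replicate 2 out cut the range from 48.6 times to 1.23 times. The hypothalamic list was widened by *Pomc* alone, since without it, its highest member, the range was 1.07 times.

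Replicate 3 held skeletal muscle transcripts. *Acta1*, skeletal alpha-actin, stood at 3.96, 2.97, 28.1, 3.93 and 3.91 CPM, and the perinatal myosin *Myh8* at 2.02, 1.95, 23.1, 1.57 and 2.30 CPM. The embryonic myosin *Myh3* had 303 counts in replicate 3 and 20 to 26 in the others, and the muscle creatine kinase *Ckm* had 240 against 16 to 22. The muscle list summed to 86.1 CPM in replicate 3 and to 9.45 to 11.2 CPM elsewhere, a range of 9.11 times that became 1.19 times without this library. The 7 at 1 CPM or more, of 8 listed, were highest in replicate 3, against 19% of all genes at that level. But *Myl1*, *Ckm* and *Myh3* were under 1 CPM in each other library and passed that mean only through replicate 3. The count of 7 was thus partly fixed by the filter and cannot be weighed against that share. All 7 were among the 21 that stood out, as were *Des*, *Actc1*, *Atp2a1*, *Mylpf* and *Mybpc1*, which also encode muscle proteins. *Myog*, the factor of muscle precursors, had 2, 1, 5, 4 and 3 counts. The 21 also held the bone and cartilage genes *Col1a1*, *Ibsp* and *Col9a1*, and the sensory neuron genes *Avil* (2.05, 1.79, 3.92, 1.78 and 2.15 CPM) and *Pirt*.

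Replicate 5 held more Hox transcripts, and from paralog group 2 to group 8 the ratio to the other libraries grew with each group. Group 1, with only 8 to 19 counts per library, was outside this order at 1.48 times. Hox genes mark position along the body axis in the order of their paralog number, from the hindbrain (low numbers) to the spinal cord (high numbers). Groups 3 and 5 were the highest in all libraries, at 30.6 ± 1.12 and 29.9 ± 2.06 CPM in replicates 1 to 4. In replicate 5 the summed level was 1.22 times the mean of the other 4 libraries for group 2, 1.33 for group 3, 1.40 for group 4, 1.41 for group 5, 2.52 for group 6, 2.87 for group 7 and 4.48 for group 8. *Hoxb8* stood at 2.56, 4.59, 2.21, 2.55 and 13.7 CPM, with replicate 2 in second place. The group 8 ratio rests on this gene, which held 435 of the 438 counts of that group in replicate 5. *Hoxd8* had 8, 2, 1, 4 and 3 counts and *Hoxc8* had 0 in each library. *Hoxb8* also made up 94.9% of the summed trunk Hox list. *Hoxc6* had 6, 6, 3, 1 and 32 counts, *Hoxa7* 1, 1, 2, 3 and 22, and *Hoxb9* 1, 1, 0, 0 and 12. Groups 10 to 13 had at most 2 counts per group in any library, as the plot by paralog group shows. *Lmx1b*, a hindbrain and spinal factor, was likewise highest in replicate 5 (12.8, 13.6, 13.3, 12.9 and 17.6 CPM), and so were 10 of the 12 hindbrain factors at 1 CPM or more, against 16.8% of all genes of at least 1 CPM. *Prrxl1*, a factor of sensory and dorsal spinal neurons, stood at 3.40, 3.84, 4.26, 3.56 and 6.53 CPM. Forebrain and midbrain totals in replicate 5 lay within the range of the other libraries.

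**Figure D4:**
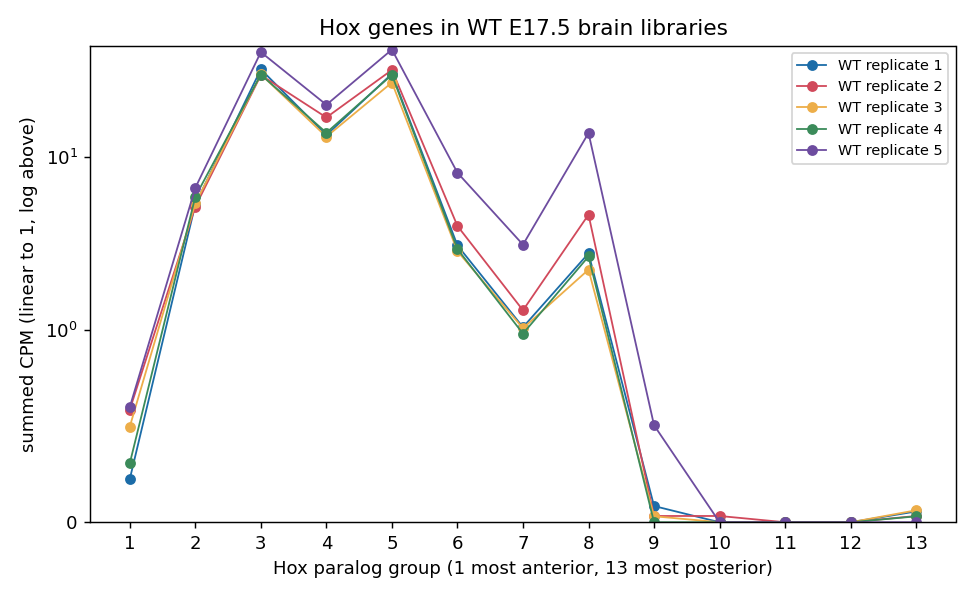
Summed CPM of the Hox genes of each paralog group, from 1 (most anterior) to 13 (most posterior), with 1 line per WT library, on an axis that is linear up to 1 CPM and logarithmic above. The line of replicate 5 lies above the others from group 2 to group 9 and stands at 13.8 CPM in group 8, where replicate 2 is next at 4.66 CPM.

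Replicate 1 stood apart for transcripts that hold ribosomal sequence. *Gm42418*, *CT010467.1* and *AY036118*, loci known to overlap ribosomal RNA repeats, were the largest case. *Gm42418* stood at 423, 2105, 2392, 2582 and 2593 CPM, *CT010467.1* at 573, 2921, 3298, 3586 and 3589 CPM, and *AY036118* at 365, 1842, 2117, 2291 and 2300 CPM. *Lars2*, a mitochondrial leucyl-tRNA synthetase whose locus (chromosome 9, 123366927 to 123462675) is also known to attract such reads, stood at 68.0, 292, 291, 310 and 311 CPM. *Mir6236*, *Gm15564*, *Gm23935* and *Gm26917* had the same pattern, and *Rn7sk*, a small nuclear RNA with no poly(A) tail, had 26, 119, 150, 148 and 160 counts. These genes held 8 of the 9 places among genes of at least 10 CPM whose SD of log2 CPM was above 0.5, the other being *Gh*. Replicate 1 lay at one end of the first principal component (-5.21, -0.03, 2.41, 1.69 and 1.14 in replicates 1 to 5). This component took 48.6% of the variance of the 2000 most variable genes. Its largest weights at the opposite end were those of *CT010467.1* (0.355), *AY036118* (0.350), *Gm42418* (0.347), *Lars2* (0.243) and *Mir6236* (0.198). With the 27 genes that were lower in replicate 1 left out, the first component still took 39.7%. The position of each library on it was not computed without them. The part that such reads had in the other differences of replicate 1 was not tested.

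A further group of genes had separate levels, each shared by several embryos. *Ndn*, an imprinted gene of neurons (chromosome 7, 62348277 to 62349928), stood at 331, 315, 328, 488 and 500.2 CPM. The same split of replicates 4 and 5 from the other 3 was seen in the mitochondrial gene *mt-Nd3*, with 3, 6, 1, 83 and 75 counts, and inversely in *Gm28438*, with 108, 84, 59, 8 and 7 counts. In *Ide*, the insulin-degrading enzyme, the same 2 libraries were the lowest and replicate 1 the highest. It stood at 112, 80.9, 76.9, 53.0 and 51.7 CPM and *Btaf1*, which lies near it on chromosome 19, at 58.5, 48.3, 43.0, 34.5 and 34.6 CPM. Replicates 2 and 3 were apart from the rest for *Rpl29*, a ribosomal protein gene, at 165, 95, 92.4, 171 and 168 CPM, and for *Gm8210*, a pseudogene that carries *Rpl29* among its synonyms, with 0, 199, 236, 1 and 0 counts. Replicates 1 and 3 were higher for *Dmpk* (44.5, 32.3, 49.1, 32.4 and 32.4 CPM).

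**Figure D5:**
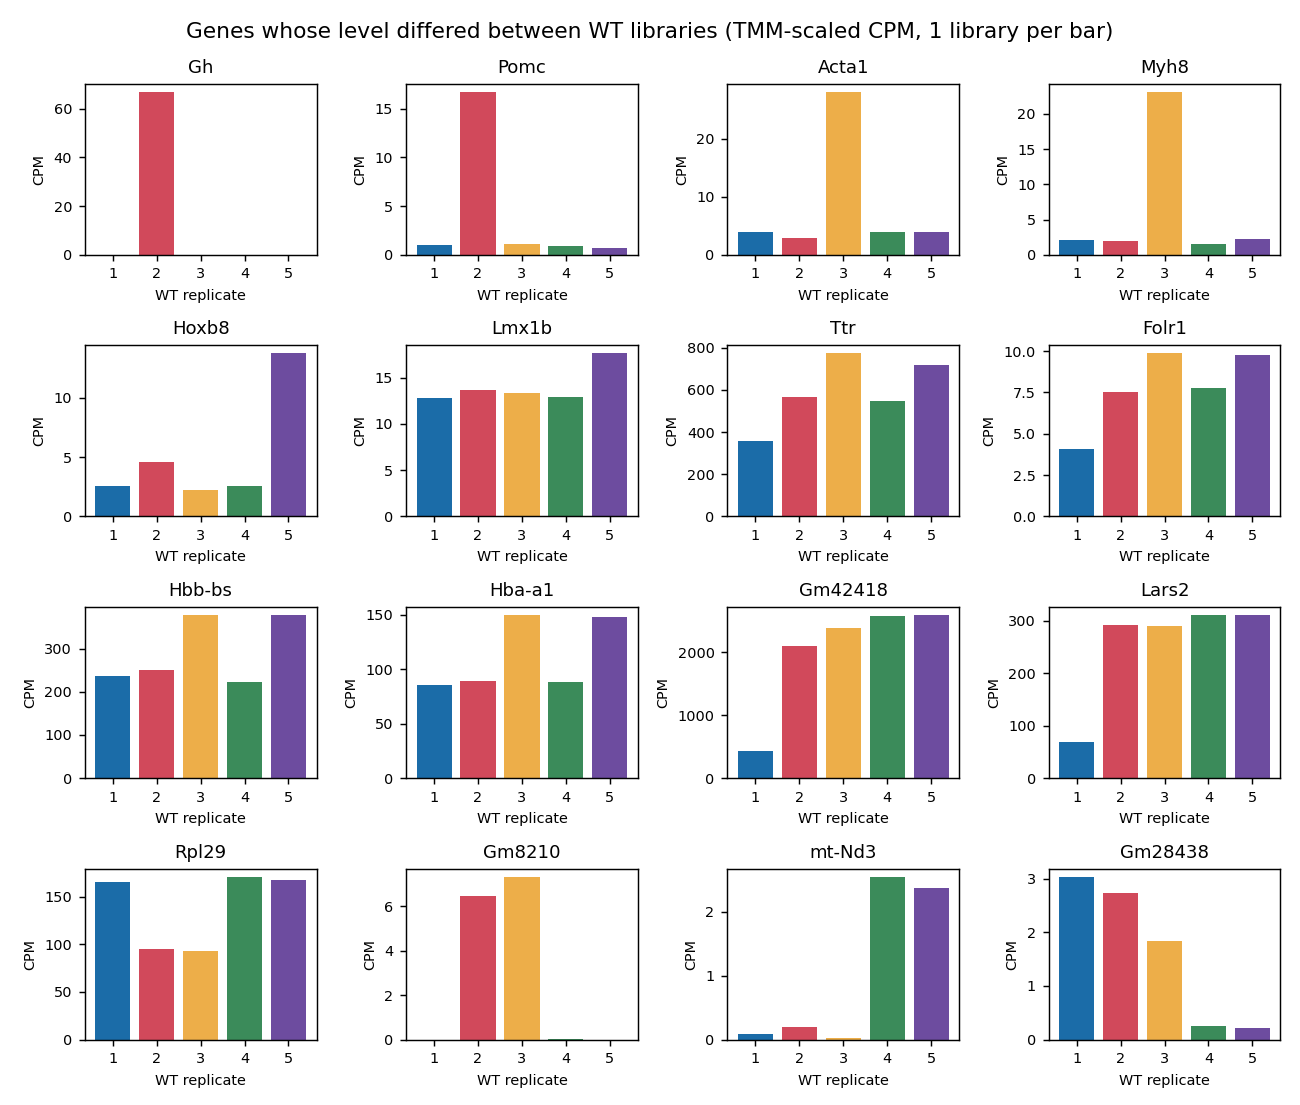
Level in CPM of 16 genes in each WT library, 1 bar per library from replicate 1 to replicate 5. *Gh* and *Pomc* rise in replicate 2, *Acta1* and *Myh8* in replicate 3 and *Hoxb8* in replicate 5, whereas *Gm42418* and *Lars2* are low in replicate 1 and *Rpl29* and *Gm8210* change in opposite directions in replicates 2 and 3.

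The mitochondrial protein genes gave uneven counts within each library. *mt-Co1* stood at 5422 ± 155 CPM, *mt-Cytb* at 3668 ± 99.4 CPM and *mt-Nd1* at 2043 ± 53.1 CPM, but *mt-Co2* (1.08 ± 0.268 CPM), *mt-Co3* (1.30 ± 0.241 CPM), *mt-Atp6* (1.39 ± 0.169 CPM), *mt-Atp8* (0.527 ± 0.137 CPM) and *mt-Nd4l* (0.352 ± 0.227 CPM) had at most 51 counts in any library. The pseudogene *Gm10925* (2.85 ± 0.249 CPM), *Gm28661* (2.48 ± 0.241 CPM) and *Gm28437* (2.87 ± 0.327 CPM), which are not mitochondrial by name, were counted more often than these 5. Nuclear copies of mitochondrial sequence are known in this genome, and how reads that fit several places were counted was not stated. The level of these mitochondrial genes is therefore uncertain.

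Over all genes the embryos were close to one another. Pearson correlations of log2 CPM over the genes of at least 1 CPM ran from 0.995 to 0.997 over the 10 pairs of libraries. The mean distance of a library to the other 4, on variance-stabilized counts, was 10.2 for replicate 1, 9.19 for replicate 2, 9.21 for replicate 3, 8.85 for replicate 4 and 8.70 for replicate 5. No pair was a repeat of 1 library. The median squared difference of a gene between 2 libraries was 1.85 to 3.56 times what counting error gives.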

How the data were processed

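Total RNA of integrity number above 9 from female E17.5 brains was enriched by oligo-d(T) and sequenced as paired-end reads. Per the labels, the authors trimmed reads with cutadapt 2.4, mapped them with STAR 2.5.3a to mm10 (GRCm38.p6) and counted them with featureCounts (Subread 1.6.4). They deposited raw counts per gene, without normalization. The annotation, the strand setting and the handling of reads on several genes are not given in the sources used here, so overlapping, antisense and near-identical genes are uncertain. *Ugt1a5*, *Ugt1a8* and *Ugt1a10* had the same mean (2.86 CPM) and CV (15.2%), as where 1 read pair is counted on several genes.

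For the 5 WT columns, edgeR 4.0.16 under R 4.3.3 gave TMM factors, log2 CPM (prior count 2) and the common dispersion, and DESeq2 1.42.0 the variance stabilization. A gene was kept where its normalized counts added up to 10 or more, which left 25389. Coordinates and gene classes came from RefSeq annotation of GRCm38.p6, which matched 38773 of the 55335 listed symbols, and 443 more by synonym. No exon lengths, sequences or promoters were used here. The spread estimate and the threshold on SD were tested on simulated data.

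Genes were named by rule: the 25 with most counts, up to 4 of highest level per list, the 20 most and 10 least variable, the 5 highest long noncoding genes, the genes of the pairs, those at each end of the first component, *Xist*, *mt-Nd3*, *Nipbl* and *Wapl*, plus genes added after their values were seen, mainly those that stood out in 1 library and list members named in the text. The members and lists were chosen with earlier results of these data known. Alternatives were other size factors, filters and prior counts, and leaving out each library. Some genes are not reported here. P-values were not computed, since the libraries are 1 group.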

Additional observations from a re-analysis of the deposited data

Results flagged for a closer look

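In each group of 5 values the distance of the highest or lowest library from its nearest neighbour was divided by the whole range, and a ratio above 0.71 marks a library that sits alone. Over 288 list totals, library values and named genes, 39 passed. Chance alone marks about 1 in 20 groups of unselected values, but many of these genes were named for their spread and the totals overlap their members, so the number that passed is not evidence of an excess.

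Replicate 2 sat alone on the high side for the pituitary total (0.995), the hypothalamic peptide total (0.916), *Gh* (0.999), *Pomc* (0.975), *Tshb* (0.894), *Pitx1* (0.794) and the macrophage gene *Mrc1* (0.729). It sat alone on the low side for *Tmem128* (0.759), *Slc12a5* (0.749) and *Hsp90ab1* (0.716), although for *Slc12a5* and *Hsp90ab1* the highest library was under 1.1 times the lowest.

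Replicate 3 sat alone on the high side for the muscle total (0.978), the cartilage and bone total (0.794), *Myh3* (0.980), *Myh8* (0.966), *Acta1* (0.960), *Ttn* (0.846), *Col1a2* (0.795) and *Aars* (0.822), and on the low side for the replication gene *Mcm7* (0.721). *Aars* is also one of the 10 most even genes, so that its marked library differs from the others by about 1%.

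Replicate 5 sat alone on the high side for the hindbrain factor total (0.843), the trunk Hox total (0.801), *Hoxb3* (0.772), *Hoxb8* (0.793), *Hoxb9* (0.914) and *Lmx1b* (0.829). Replicate 4 did so for the astrocyte total (0.809) and for the eye factor *Rax* (0.754), which had 8 counts against 4 or 5.

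Replicate 1 sat alone on the low side for *CT010467.1* (0.779), *Gm42418* (0.775), *AY036118* (0.764), *Lars2* (0.915), *Mir6236* (0.851), *Gm15564* (0.834), the border macrophage total (0.768), the endothelial gene *Cdh5* (0.883) and the choroid plexus gene *Enpp2* (0.721). It sat alone on the high side for the Y-linked gene *Ddx3y* (0.965), with 3 counts against 1 in each other library, and for *Rian* (0.71). The same held for the pseudogene *Mid1-ps1* (0.832), which the annotation places on chromosome Y.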

How the results depend on the processing

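Of 72 recomputed summary values, 62 kept the result and 10 moved. Scaling by DESeq2 size factors or by library totals alone moved none. The median CV rose to 4.95% over genes of at least 1 CPM and was 2.83% over those of at least 100 CPM, and leaving out each library in turn gave 3.51% to 3.81%. The number of genes whose SD of log2 CPM was above 0.5 rose from 9 to 58 with genes of at least 1 CPM, fell to 1 without the genes lower in replicate 1 (an alternative chosen after seeing the data), and ran from 4, without replicate 1, to 12 when each library was left out. The first principal component took 39.7% of the variance without those same genes, 38.1% over all genes kept and 27.7% on log2 CPM, and from 47.5% to 63.4% when each library was left out, the highest value without replicate 2. The share of the 100 most abundant genes was 12.6% without mitochondrially encoded genes. The number of lists with a range of at least 1.5 times ran from 6, without replicate 1, to 9 and that of pairs with the early gene higher was 8 throughout. Depth limits the low genes most, since counting alone gives 9.52% at the median between 1 and 10 CPM. No paired analysis was possible because the libraries form 1 group and no result comes from a test. Levels per length and promoter motifs were not run, because exon lengths and promoter sequences were not available here.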

Other observations

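Some single genes outside the lists differed sharply between embryos, and all were chosen after their values were seen. *Xlr3b*, an imprinted gene of the X chromosome, had 248, 1, 134, 236 and 288 counts, so that it was nearly silent in replicate 2. *Capn11* had 25, 6, 6, 125 and 4 counts, most of them in replicate 4. *Eps8l1* stood at 9.39, 11.0, 7.37, 3.50 and 13.7 CPM, with replicate 4 the lowest. *Tph1*, a serotonin-synthesis enzyme known from the pineal gland and gut, had 17, 77, 53, 95 and 52 counts, the fewest in replicate 1. *Tsix*, the antisense partner of *Xist*, had 47, 96, 101, 131 and 111 counts while *Xist* stood at 879, 845, 785, 781 and 782 CPM, and without a stated strand setting the reads of this pair cannot be told apart.

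The signalling adaptor gene *Shc3* stood at 16.3, 19.3, 8.34, 11.8 and 16.0 CPM, and the kinesin gene *Kif1b* at 759, 774, 571, 597 and 701 CPM. In both, replicates 3 and 4 were the lowest libraries.

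Of the 6 epidermal genes on the keratinocyte list, *Krt1* and *Krt10* were above 1 CPM, with *Krt1* at 7.09, 8.76, 8.59, 6.51 and 7.86 CPM and *Krt10* at 6.10, 7.40, 5.04, 5.25 and 4.86 CPM. The basal keratins *Krt5* (0.143 CPM), *Krt14* (0.175 CPM) and *Krt15* (0.187 CPM) were near 0, and the epidermal factor *Trp63* had 9 to 13 counts.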
